A study of Mus musculus with 24 samples.

Results

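The data describe subcutaneous white adipose tissue (sWAT) of male mice lacking Gdf15 beside that of male WT mice. Members were the 6 male Gdf15-KO mice (numbered 13 to 18) and the 6 male WT mice (numbered 1 to 6), 12 of the 24 mice sequenced, taken from the sex and genotype in the sample labels and fitted without the 12 females. The knockout is whole-body, on a C57BL/6/129/SvJ background, and WT animals were littermates from heterozygous crosses. All mice were 20 weeks old, had free access to standard chow and were killed at lights off, so the tissue is that of fed animals. RNA of the whole depot was sequenced as paired reads and summed per gene. Values are given as CPM, the read count of a gene scaled to library size after TMM normalization, which compare mice for 1 gene but not genes with each other. Fewer cells of a type and less RNA per cell cannot be told apart in such bulk tissue.

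GDF15 is a secreted hormone of the TGF-beta superfamily. It is induced by cell stress and acts through the receptor GFRAL in the hindbrain, where it lowers food intake. White fat takes up fatty acids that lipoprotein lipase frees from circulating lipoproteins, makes others by de novo lipogenesis, stores both as triglyceride and releases them by lipolysis, and it also holds a small glycogen store.

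Gdf15 itself, the targeted gene (gene ID 23886, chromosome 8 of GRCm39, 71082038 to 71091537), was read first as a check of the labels. It had 0 to 0.08 CPM, median 0.0207, in Gdf15-KO mice and 0.591 to 1.33 CPM, median 0.972, in WT mice, so the groups did not overlap. These are low counts. The 6 Gdf15-KO mice had 1, 2, 0, 1, 0 and 0 counts, 4 in all, and the 6 WT mice had 17, 16, 30, 31, 27 and 14, 135 in all. Scaled to depth, the Gdf15-KO level was 2.85% of the WT level (exact binomial 95% interval 0.765% to 7.46%, counting error only), and the gene passed the test across all genes (log2 fold change -4.89, standard error 0.49, adjusted p = 0.000432). No library went against its label.

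Of 14379 genes tested in male sWAT, 30 passed an adjusted p of 0.05 in edgeR's quasi-likelihood test, 0.209% of all. In Gdf15-KO mice 5 of them rose (0.0348% of those tested) and 25 fell (0.174%). Most of the 30 lie close to Gdf15. Within 20 Mb of it on chromosome 8, 24 of 247 tested genes changed (9.72%), 21 lower and 3 higher, and elsewhere 6 of 14132 changed (0.0425%), 4 lower and 2 higher. The 6 are Egr1 and A4galt, which rose, and Angptl8, Ppp1r3b, Flrt1 and Zfp131, which fell. In 29 of the 30 the highest mouse of the lower group stayed below the lowest mouse of the other. These genes were chosen by p on the same mice, so their separation is not independent evidence. Over all tested genes 0.494% separated the groups, 0.376% with every Gdf15-KO mouse below every WT mouse and 0.118% with every Gdf15-KO mouse above. The count depended on single mice. It was 17 without Gdf15-KO 13, 19 without Gdf15-KO 16, 18 without WT 2, 16 without WT 5 and 18 without WT 6, and DESeq2 on the same mice called 59 genes (0.327%), all 30 among them.

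The changed genes near Gdf15 lie in 1 stretch of 3.83 Mb, between the outer ends of Slc18a1 and Smim7. By gene midpoints it reaches from 1.57 Mb on the proximal side (Slc18a1) to 2.23 Mb on the distal side (Smim7). Its borders are the outermost calls within 20 Mb, so all 24 of these calls lie in it by definition, and its counts are not independent of the calls. It holds 104 tested genes. Of these 104, 47 were lower and 9 higher at an unadjusted p under 0.05, against 2.86% lower and 2.14% higher over all tested genes. The other 143 genes of the window held no call, again by definition, and 5 were lower and 2 higher at that unadjusted p. The proximal border depends on the test, since Lpl and Ints10, just beyond it, passed in DESeq2 and in the fit of all 24 mice. DESeq2 also called Sh2d4a, farther out at 2.32 Mb on the proximal side (edgeR log2 fold change -0.49, adjusted p = 0.175). The change was uneven inside the stretch, where 80 of the 104 genes did not pass the test and lie among those that did. The study's mice carry C57BL/6 and 129 DNA, the strain origin of the DNA linked to the Gdf15 allele was not analysed here, and its effects and those of losing Gdf15 cannot be told apart in this design.

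**Figure D1:**
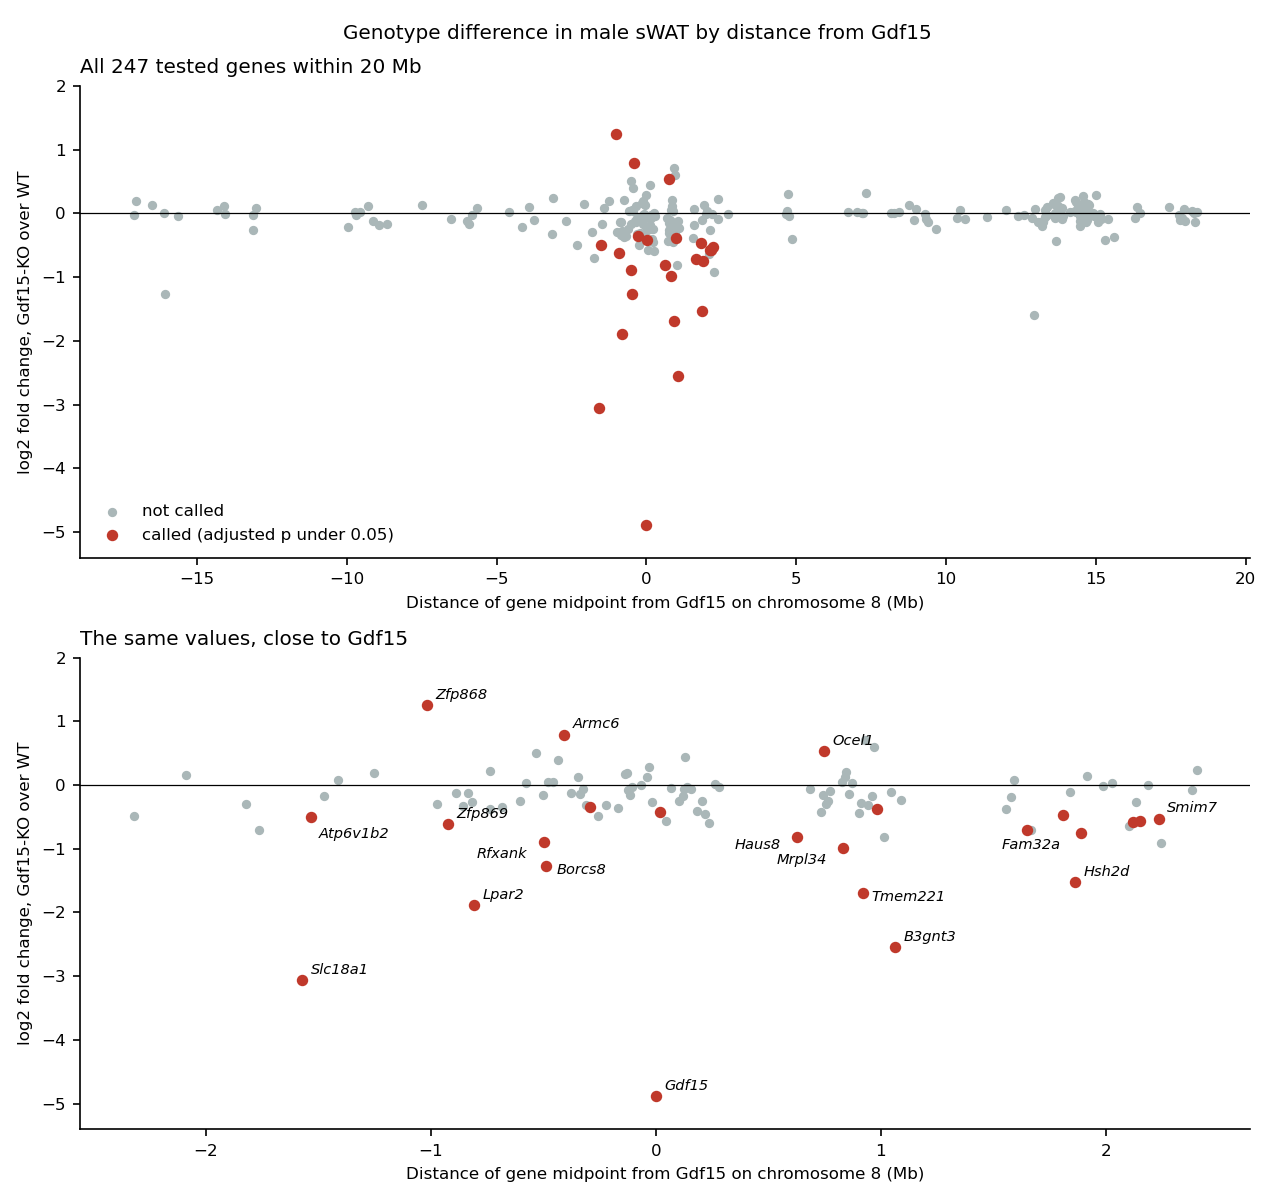
Log2 fold change (Gdf15-KO over WT, y axis) of each tested gene by the distance of its midpoint from Gdf15 on chromosome 8 (x axis, Mb), above for all 247 genes within 20 Mb and below for those close to Gdf15. Called genes, in red, lie between 1.57 Mb on one side and 2.23 Mb on the other, 21 below 0 and 3 above, with grey genes that were not called among them.

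Beside Gdf15, the greatest decreases of the stretch were those of Slc18a1, B3gnt3, Lpar2 and Tmem221. B3gnt3, which encodes an N-acetylglucosaminyltransferase that extends sugar chains on glycoproteins (gene ID 72297, chromosome 8, 72142179 to 72156241), had 3.64 to 5.02 CPM, median 4.04, in Gdf15-KO mice and 21 to 28.6 CPM, median 23.5, in WT mice. It had the smallest p of all genes (log2 fold change -2.55, standard error 0.12, adjusted p = 1.75e-07), and each Gdf15-KO mouse was far below each WT mouse. Slc18a1, the vesicular monoamine transporter VMAT1, fell to a low level. It had 0.0418 to 0.328 CPM, median 0.264, in Gdf15-KO mice and 1.11 to 3.24 CPM, median 1.86, in WT mice (log2 fold change -3.06, standard error 0.37, adjusted p = 0.00227), and 1 Gdf15-KO mouse, number 17, had 0.0418 CPM. Lpar2, a receptor for lysophosphatidic acid, had 0.854 to 2.5 CPM, median 1.85, in Gdf15-KO mice and 3.81 to 9.75 CPM, median 5.85, in WT mice (log2 fold change -1.89, standard error 0.26, adjusted p = 0.00732). Tmem221, a predicted membrane protein, had 0.68 to 0.996 CPM in Gdf15-KO and 1.81 to 3.56 CPM in WT mice (log2 fold change -1.69, standard error 0.18, adjusted p = 0.00066). The groups of these 4 genes did not overlap. Hsh2d, an SH2 adaptor of blood cells, fell as well, with 1.13 to 2.66 CPM in Gdf15-KO and 2.43 to 6.5 CPM in WT mice (log2 fold change -1.53, standard error 0.26, adjusted p = 0.0294), and it is the only called gene whose groups overlapped, because WT 1 at 2.43 CPM lay below Gdf15-KO 18 at 2.66 CPM.

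Borcs8, Rfxank, Atp6v1b2, Mrpl34, Fam32a and Upf1, which have different known roles, fell as well. Borcs8, a subunit of the BORC complex that positions lysosomes, had 13.8 to 15.8 CPM, median 15.2, in Gdf15-KO mice and 33.1 to 41.1 CPM, median 35.9, in WT mice (log2 fold change -1.27, standard error 0.06, adjusted p = 1.94e-07). Rfxank, a subunit of the RFX complex that binds MHC class II promoters, had 9.35 to 10.9 CPM, median 9.87, in Gdf15-KO mice and 16.5 to 20.0 CPM, median 18.6, in WT mice (log2 fold change -0.89, standard error 0.07, adjusted p = 1.63e-05). The start sites of Borcs8 and Rfxank are 198 bases apart on opposite strands, and both fell. Their annotations overlap by 297 bases, so reads from there cannot be told apart without strand. Borcs8 also shares 10681 bases with Mef2b on the same strand, which was at 0.496 ± 0.349 CPM in Gdf15-KO mice and 0.479 ± 0.459 CPM in WT mice (SD), and Rfxank shares 2444 bases with Nr2c2ap on the opposite strand (log2 fold change -0.16, not past the test). Atp6v1b2, the B2 subunit of the vacuolar proton pump, had 90.2 to 121 CPM, median 104, in Gdf15-KO mice and 142 to 151 CPM, median 147, in WT mice (log2 fold change -0.50, standard error 0.07, adjusted p = 0.00965). It shares 591 bases with Slc18a1 head to head, and both fell, by very different amounts. Mrpl34, a protein of the large mitochondrial ribosomal subunit, had 7.09 to 11.2 CPM in Gdf15-KO and 15.3 to 22.2 CPM in WT mice (log2 fold change -0.98, standard error 0.12, adjusted p = 0.00317). Fam32a, known in human as a protein of the spliceosome, had 41.2 to 45.3 CPM in Gdf15-KO and 63.6 to 78 CPM in WT mice (log2 fold change -0.75, standard error 0.06, adjusted p = 1.63e-05). Upf1, the RNA helicase of nonsense-mediated decay, had 87.7 to 104 CPM in Gdf15-KO and 114 to 142 CPM in WT mice. Its change was small (log2 fold change -0.35, standard error 0.06, adjusted p = 0.0466) and lay just inside the threshold.

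Zfp868 and Zfp869, members of a cluster of zinc finger genes, moved in opposite directions. Zfp868 had 24.1 to 35.4 CPM, median 29.3, in Gdf15-KO mice and 11.7 to 13.5 CPM, median 12.5, in WT mice (log2 fold change 1.25, standard error 0.09, adjusted p = 1.16e-05) and was the gene of the stretch that rose most. Zfp869 had 24.8 to 35 CPM, median 30.5, in Gdf15-KO mice and 43 to 52.3 CPM, median 46, in WT mice (log2 fold change -0.62, standard error 0.08, adjusted p = 0.00274). Their start sites are 91342 bases apart on the same strand. Both belong to a family of similar sequences, so the split of reads between them by RSEM is uncertain. Added together, the 2 genes came to 60.3 ± 7.04 CPM in Gdf15-KO mice and 59.4 ± 3.79 CPM in WT mice (SD). The pair was summed after its values were seen. Zfp964, which lies between them, and Zfp963 and Zfp866, just beyond Zfp869, had log2 fold changes of -0.29, -0.13 and -0.34 and did not pass the test, and reads may be split with them as well. Of these, Zfp866 had every Gdf15-KO mouse below every WT mouse and was called by DESeq2 on the same mice. Whether reads were assigned to the wrong member of the cluster was not tested. Of 4 tested genes with a Zfp symbol on the distal side of Gdf15 within the stretch, Zfp961 fell, with 5.93 to 9.59 CPM in Gdf15-KO and 10.4 to 14.1 CPM in WT mice (log2 fold change -0.71, standard error 0.12, adjusted p = 0.0323), and Zfp709, Zfp882 and Zfp617 did not pass the test, at log2 fold changes of -0.38, -0.19 and 0.08. Zfp961 shares 21166 bases with Cyp4f18 on the opposite strand, which had the same log2 fold change with a wider error (-0.71, standard error 0.31) and did not pass the test. The 2 other genes that rose were Armc6, an armadillo repeat protein, with 12.8 to 16.5 CPM in Gdf15-KO and 7 to 9.42 CPM in WT mice (log2 fold change 0.79, standard error 0.09, adjusted p = 0.00135), and Ocel1, with 13.6 to 17.9 CPM in Gdf15-KO and 9.24 to 12.8 CPM in WT mice (log2 fold change 0.53, standard error 0.09, adjusted p = 0.0269). Ocel1 overlaps 2 genes of the opposite strand, Nr2f6 and Ushbp1, which did not pass the test and had negative log2 fold changes of -0.15 and -0.31.

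The 200 bases before the annotated start are shown for Zfp868 and for Fam32a, as examples of a gene of the stretch that rose and one that fell, with the CCAAT box (CCAAT, either strand) in capitals. The sequences are read from GRCm39 with the GENCODE annotation, 5′ to 3′ on the strand of the gene.
Zfp868 (chr8:70078211-70078410, minus strand): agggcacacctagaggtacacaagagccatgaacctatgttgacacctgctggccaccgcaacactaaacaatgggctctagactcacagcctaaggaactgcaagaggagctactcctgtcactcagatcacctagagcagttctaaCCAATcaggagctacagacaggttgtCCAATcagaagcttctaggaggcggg
Fam32a (chr8:72973364-72973563, plus strand): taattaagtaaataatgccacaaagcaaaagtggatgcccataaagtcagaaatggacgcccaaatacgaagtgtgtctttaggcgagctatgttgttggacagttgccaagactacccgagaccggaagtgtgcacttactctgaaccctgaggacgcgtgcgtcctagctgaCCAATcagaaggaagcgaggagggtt
Zfp868 has the box 52 and 26 bases before its start and Fam32a has it 26 bases before its start. Zfp869 has the box at the same 2 distances as Zfp868 and once more 134 bases before its start, although the levels of the 2 genes moved apart. The box is common, in 31.5% of 14046 promoters of the same length, and its presence here is a description only.

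The remaining 7 called genes of the stretch also fell. Slc35e1 had 51.3 to 60.8 CPM in Gdf15-KO and 75.9 to 91.1 CPM in WT mice (log2 fold change -0.57, standard error 0.06, adjusted p = 0.00066). Smim7, the outermost gene on the distal side, had 47.1 to 60.3 CPM in Gdf15-KO and 70.2 to 81.8 CPM in WT mice (log2 fold change -0.53, standard error 0.07, adjusted p = 0.00531). Pgpep1, which removes pyroglutamate from the ends of peptides and whose start lies 27420 bases from that of Gdf15, had 19.8 to 23.6 CPM in Gdf15-KO and 26.1 to 30.8 CPM in WT mice (log2 fold change -0.42, standard error 0.06, adjusted p = 0.0156). In all 3 the groups stood apart. Tpm4, an actin-binding tropomyosin, and Colgalt1, which adds galactose to collagen, had log2 fold changes of -0.47 and -0.38 (adjusted p = 0.0179 and 0.0255). Colgalt1 shares 2758 bases with Unc13a on the opposite strand, which had -0.81 and did not pass the test. Unc13a still had every Gdf15-KO mouse below every WT mouse and was called by DESeq2 on the same mice. Haus8, a subunit of the augmin complex of the mitotic spindle, and 1700030K09Rik had -0.81 and -0.58 (adjusted p = 0.023 and 0.0156). Next to the outermost called genes, Lpl on the proximal side did not pass the test and is described with its pathway. Tmem38a on the distal side, a channel of muscle sarcoplasmic reticulum, had 5.43 to 85.5 CPM in Gdf15-KO and 6.12 to 183 CPM in WT mice (adjusted p = 0.964) and the 5 mice with its highest levels were the 5 with the highest summed skeletal muscle markers.

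**Figure D2:**
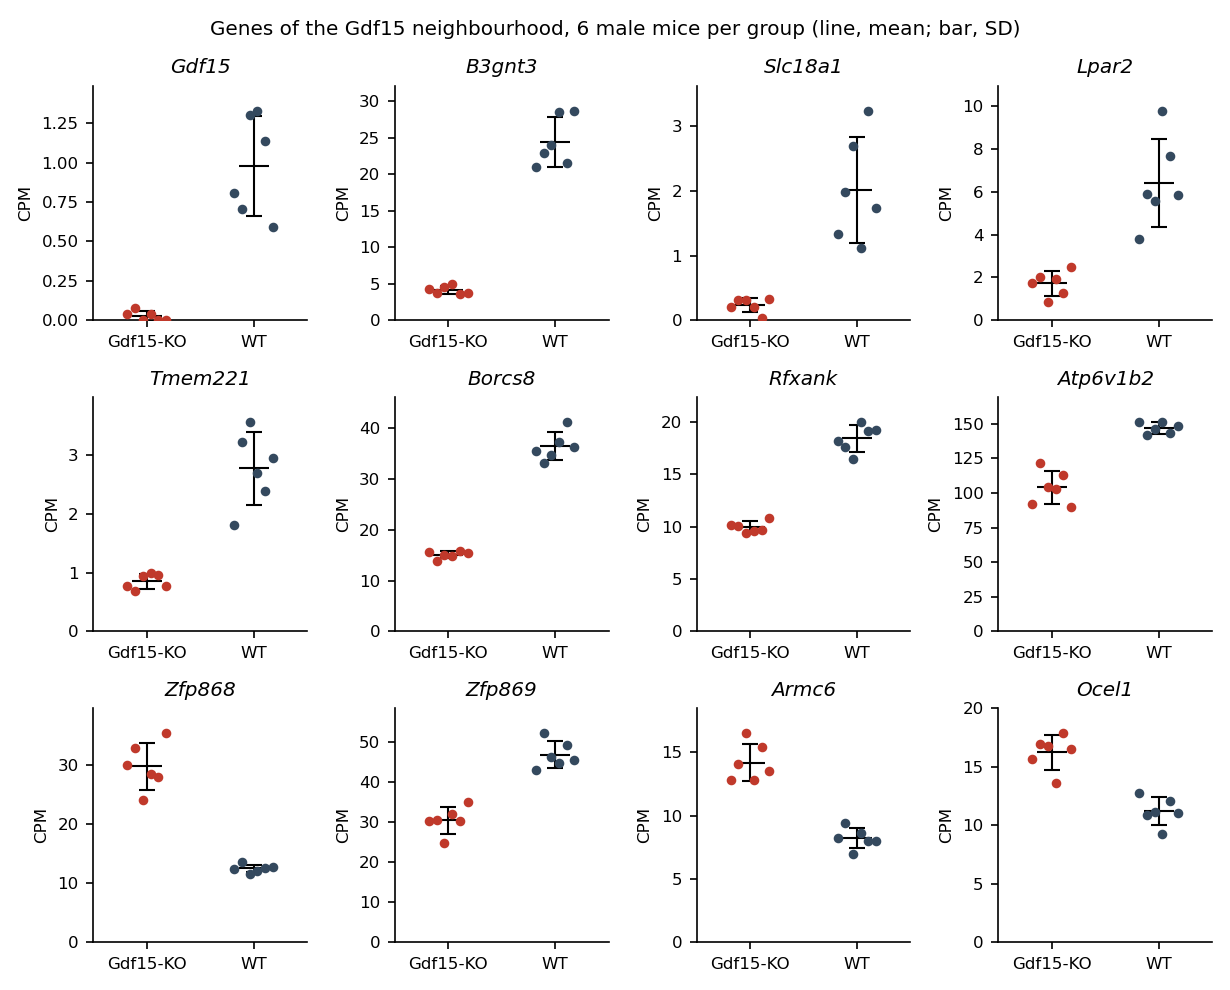
CPM (y axis, from 0) of 12 genes of the Gdf15 neighbourhood in each male mouse, Gdf15-KO on the left and WT on the right, with the mean (line) and SD (bar) of 6 mice. Every gene shown is separated without overlap, with Zfp868, Armc6 and Ocel1 higher in Gdf15-KO mice and the other 9 lower.

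Of the calls, 15 held in every alternative in which the gene was tested. They are B3gnt3, Borcs8, Zfp868, Fam32a, Rfxank, Gdf15, Tmem221, Slc35e1, Armc6, Slc18a1, Zfp869, Mrpl34, Smim7, Lpar2 and Atp6v1b2, all in the stretch. Of the other calls, Upf1 was lost in 18 of 23 alternatives, Flrt1 in 16 of 22, Angptl8 in 15 of 23, Zfp131 in 14 of 23 and Hsh2d in 12 of 23, and the remaining 10 in 1 to 11. Just outside the threshold were Lsm4 (log2 fold change -0.57, standard error 0.10, adjusted p = 0.0572), an RNA-binding Sm-like protein, Ccdc124 (adjusted p = 0.074), Ints10 (adjusted p = 0.074) and Use1 (adjusted p = 0.0819), all near Gdf15 and all with every Gdf15-KO mouse below every WT mouse. DESeq2 added 15 genes of the window and 14 elsewhere. Those elsewhere include Ppp1r3c, Pank1, Bhlhe40, Txnip, Slc25a32, LOC118568312, Fos, Cidea and Slc27a2, which are given below with their edgeR values.

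Away from Gdf15, 6 genes passed the test, and none of them was among the 15 calls that held throughout. All 6 lost the call when the 24 mice of both sexes were fitted together, and leaving out any 1 mouse other than WT 4 brought the number of calls outside the window to 3 or fewer. It was 0 without WT 5, 1 without Gdf15-KO 13, 16 or 18, 2 without Gdf15-KO 15 or 17 or without WT 1, 2, 3 or 6, 3 without Gdf15-KO 14 and 5 without WT 4.

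Ppp1r3b was the only one of the 6 on chromosome 8, 35.24 Mb from Gdf15 (gene ID 244416, 35842874 to 35856680). It encodes a subunit that brings protein phosphatase 1 to glycogen, where the phosphatase activates glycogen synthase. Its level was 25.8 to 67.6 CPM, median 39.7, in Gdf15-KO mice and 79.9 to 149.6 CPM, median 133, in WT mice, and no mouse of one group reached the other (log2 fold change -1.45, standard error 0.24, adjusted p = 0.0269). Ppp1r3c, the related glycogen-targeting subunit PTG (gene ID 53412, chromosome 19, 36708523 to 36714070), also stood lower in every Gdf15-KO mouse but missed the threshold. It was called by DESeq2 on the same mice (adjusted p = 0.000105). It had 19 to 46.1 CPM, median 37.7, in Gdf15-KO mice and 54.9 to 102 CPM, median 72.3, in WT mice (log2 fold change -1.13, standard error 0.22, adjusted p = 0.074). The family was looked at after these values were seen. Of its 7 genes in the table, 6 were tested and 1 was called. Ppp1r3d had 10.9 ± 2.4 CPM in Gdf15-KO mice and 14 ± 1.89 CPM in WT mice (SD, log2 fold change -0.37, adjusted p = 0.956). Ppp1r3e and Ppp1r3f had log2 fold changes of -0.03 and 0.16, and Ppp1r3a, the muscle form, -0.99 with a standard error of 1.04. Gys1 and Gys2, the glycogen synthases, had log2 fold changes of -0.08 and -0.24 (adjusted p = 0.977 and 0.964).

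The promoters of Ppp1r3b and Ppp1r3c are shown because these 2 related genes on different chromosomes lay lower together. Capitals mark the E-box CACGTG, which is its own reverse complement, and the CCAAT box on either strand (ATTGG on the other), in the 200 bases before the start (GRCm39).
Ppp1r3b (chr8:35842674-35842873, plus strand): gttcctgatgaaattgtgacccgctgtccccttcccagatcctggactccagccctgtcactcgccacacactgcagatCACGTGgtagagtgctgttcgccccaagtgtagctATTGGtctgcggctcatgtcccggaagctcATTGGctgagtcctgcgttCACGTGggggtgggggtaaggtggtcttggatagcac
Ppp1r3c (chr19:36714071-36714270, minus strand): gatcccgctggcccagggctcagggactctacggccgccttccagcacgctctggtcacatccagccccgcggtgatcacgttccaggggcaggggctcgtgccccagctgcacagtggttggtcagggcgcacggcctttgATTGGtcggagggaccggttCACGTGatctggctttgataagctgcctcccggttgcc
Ppp1r3b has E-boxes starting 121 and 37 bases before its start and Ppp1r3c has one 38 bases before its start. A CCAAT box on the other strand starts 56 bases before the start of Ppp1r3b and 58 before that of Ppp1r3c, and Ppp1r3b has another at 86. An E-box occurred in 6.55% and a CCAAT box in 31.5% of 14046 promoters of this length. The motifs do not overlap, and they are matches of letters, not sites shown to be bound. Neither window held a GC box (GGGCGG) or a TATA box (TATAAA), which occurred in 45.6% and 5.61% of promoters. These 4 motifs were chosen after the levels were known. Bhlhe40, a transcription factor that binds E-boxes, was among the 10 lower genes with the smallest p outside the window, with 55.7 to 108 CPM, median 80.2, in Gdf15-KO mice and 98.7 to 204 CPM, median 148, in WT mice (log2 fold change -0.91, adjusted p = 0.26), and it did not pass the test. A link between Bhlhe40 and the levels of Ppp1r3b or Ppp1r3c was not tested.

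Angptl8, also called lipasin, is an insulin-induced secreted protein that acts with other angiopoietin-like proteins on lipoprotein lipase. It had the greatest fold change of the 6 (gene ID 624219, chromosome 9, 21746786 to 21748643). Its level was 5.08 to 10.3 CPM, median 8.49, in Gdf15-KO mice and 13.3 to 55.3 CPM, median 26.5, in WT mice (log2 fold change -1.91, standard error 0.35, adjusted p = 0.0476). The WT mice were themselves spread, with 38.1, 35.8 and 55.3 CPM in WT 1, 5 and 6 and 13.3, 17.2 and 16.3 CPM in WT 2, 3 and 4, while the Gdf15-KO mice stayed close together, and the groups did not overlap. The call sat at the edge of the threshold. The gene lies within Dock6 on the opposite strand, and Dock6 had 64.9 ± 3.79 CPM in Gdf15-KO mice and 65.8 ± 3.53 CPM in WT mice (SD, log2 fold change -0.02).
Angptl8 (chr9:21746586-21746785, plus strand): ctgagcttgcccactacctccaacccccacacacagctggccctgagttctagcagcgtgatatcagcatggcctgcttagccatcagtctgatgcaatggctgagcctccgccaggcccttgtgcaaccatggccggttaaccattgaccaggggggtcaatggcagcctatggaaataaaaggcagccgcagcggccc
These 200 bases before the Angptl8 start, shown for comparison with the pair above, held none of the 4 motifs.

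Lpl, which encodes lipoprotein lipase itself, lies 1.76 Mb from Gdf15, next beyond the outermost called gene (gene ID 16956, chromosome 8, 69284603 to 69360100). It had 3085 to 5368 CPM, median 4001, in Gdf15-KO mice and 5882 to 7088 CPM, median 6938, in WT mice. Every Gdf15-KO mouse lay below every WT mouse, yet the test across all genes missed the threshold (log2 fold change -0.70, standard error 0.13, adjusted p = 0.074). It passed in DESeq2 (adjusted p = 1.46e-05), in the fit of all 24 mice, with the B cell score as covariate and without Gdf15-KO 15, the mouse with the highest level of its group. The other partners of the lipase did not pass the test. Gpihbp1, which carries the enzyme to the capillary wall, had a log2 fold change of 0.07, Lmf1, which helps it fold, 0.03, and the inhibitor Angptl4 0.51 with a standard error of 0.30 (adjusted p = 0.964). Cd36, a fatty acid transporter, had 2290.3 ± 506 CPM in Gdf15-KO mice and 2209 ± 244 CPM in WT mice (SD).

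Egr1, an immediate early transcription factor (gene ID 13653, chromosome 18), rose. It had 34.2 to 56.1 CPM, median 49, in Gdf15-KO mice and 13.9 to 28.3 CPM, median 23.9, in WT mice (log2 fold change 1.04, standard error 0.17, adjusted p = 0.0259), and the groups did not overlap. Fos had a wider spread. It had 5 to 25.9 CPM, median 8.63, in Gdf15-KO mice and 3.58 to 5.65 CPM, median 4.67, in WT mice (log2 fold change 1.27, standard error 0.35, adjusted p = 0.52), with Gdf15-KO 17 alone at 25.9 CPM and the next mouse at 12.4 CPM. Fosb had 2.58 to 10.7 CPM in Gdf15-KO and 1.68 to 5.13 CPM in WT mice (log2 fold change 1.07, standard error 0.37, adjusted p = 0.859). In the list of 16 immediate early and heat shock genes, 1 rose by the adjusted test, 3 were higher and 1 lower at an unadjusted p under 0.05, and the median log2 fold change was -0.06. Over all tested genes 0.0348% rose, and 2.14% were higher and 2.86% lower at that unadjusted p. The lower one was Hsph1, a heat shock protein, at -0.42. Jun, Junb, Ier2 and Atf3, which are induced by the same kind of signal, had log2 fold changes of -0.23, 0.18, 0.21 and 0.30, none past the test.

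A4galt, which makes the glycolipid globotriaosylceramide (gene ID 239559, chromosome 15), rose by a small and even amount. It had 24.7 to 28.6 CPM, median 25.5, in Gdf15-KO mice and 20.0 to 21.5 CPM, median 20.4, in WT mice (log2 fold change 0.34, standard error 0.05, adjusted p = 0.0179). Zfp131, a zinc finger protein (gene ID 72465, chromosome 13), fell by the smallest amount of all called genes. It had 30.8 to 34.2 CPM, median 30.9, in Gdf15-KO mice and 36.9 to 38.9 CPM, median 37.6, in WT mice (log2 fold change -0.25, standard error 0.04, adjusted p = 0.0285), with an SD of 1.35 CPM in Gdf15-KO and 0.725 CPM in WT mice. Flrt1, a leucine-rich repeat membrane protein (gene ID 396184, chromosome 19), had 0.24 to 0.418 CPM, median 0.329, in Gdf15-KO mice and 0.549 to 1.09 CPM, median 0.826, in WT mice (log2 fold change -1.24, standard error 0.22, adjusted p = 0.043). It stayed below 1.1 CPM in every mouse and overlaps Macrod1 on the other strand, which had a log2 fold change of -0.37. Each of the 3 separated the groups without overlap.

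**Figure D3:**
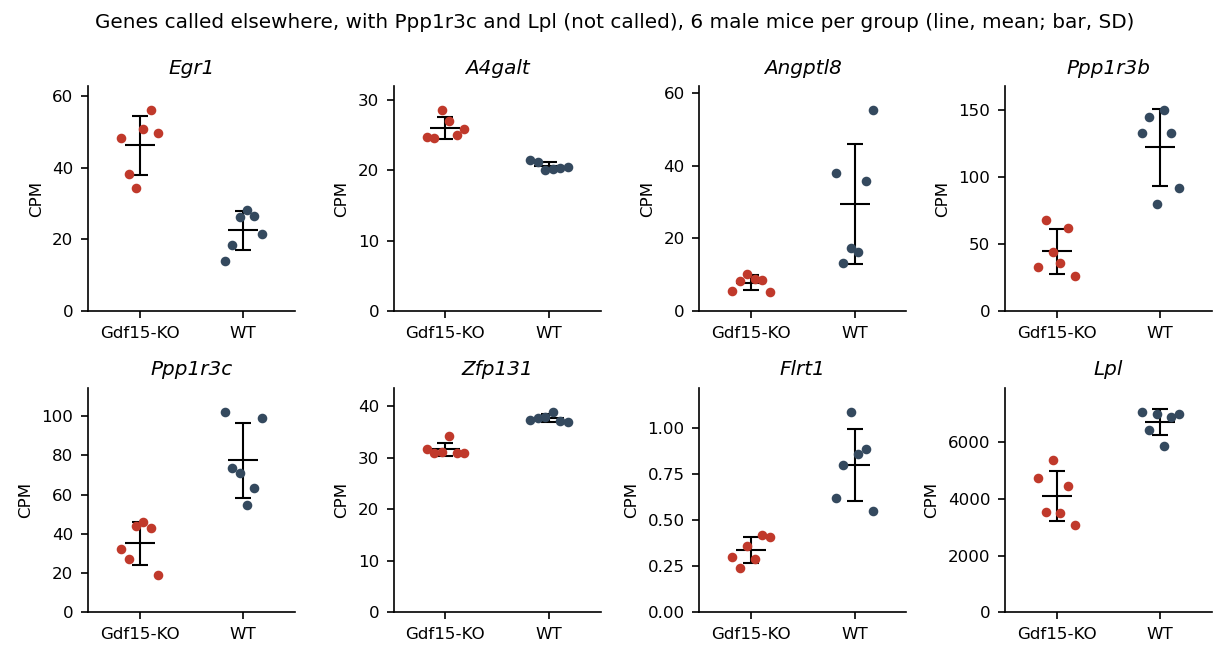
CPM (y axis, from 0) in each male mouse of the 6 genes called outside the 20 Mb window, and of Ppp1r3c and Lpl, which were not called, Gdf15-KO on the left and WT on the right, with the mean (line) and SD (bar) of 6 mice. All 8 genes separate the groups, with the WT mice of Angptl8 split between 13.3 to 17.2 and 35.8 to 55.3 CPM.

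The other genes with the smallest p outside the window did not pass the test. Among those lower in Gdf15-KO mice, Pank1, a pantothenate kinase of coenzyme A synthesis, had 12.3 to 15 CPM in Gdf15-KO and 15.6 to 26.9 CPM in WT mice (log2 fold change -0.59, standard error 0.11, adjusted p = 0.074). Arhgef19, a guanine nucleotide exchange factor, had 0.45 to 0.705 CPM in Gdf15-KO and 0.802 to 1.33 CPM in WT mice (log2 fold change -0.90, standard error 0.18, adjusted p = 0.074). Both separated the groups. Slc25a32, a mitochondrial carrier, Sec14l4 and Ubap1l followed with log2 fold changes of -0.29, -0.74 and -0.91 (adjusted p = 0.14, 0.259 and 0.356). Among those higher, LOC118568312, which has no position in the annotation used, had 3.96 to 6.8 CPM in Gdf15-KO and 2.52 to 3.89 CPM in WT mice (log2 fold change 0.85, standard error 0.17, adjusted p = 0.0798) and separated the groups. Txnip, a glucose-responsive inhibitor of thioredoxin, had 1262 to 1853 CPM in Gdf15-KO and 984 to 1305 CPM in WT mice (log2 fold change 0.44, standard error 0.10, adjusted p = 0.259). Inafm1, Prnd, Pim3, Tnfsf12 and Fndc10 had log2 fold changes of 0.40, 0.55, 0.50, 0.27 and 0.31, with adjusted p from 0.369 to 0.462.

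Genes of de novo lipogenesis had lower levels on average in male Gdf15-KO sWAT without passing the test one by one. All 20 genes of the de novo lipogenesis list had negative log2 fold changes, with a median of -0.40, where 50.5% of all tested genes were negative and their median was -0.0016. None of the 20 was called, 8 were lower and 0 higher at an unadjusted p under 0.05, and no gene separated the groups. Over all tested genes 2.86% were lower and 2.14% higher at that p, and 0.376% had every Gdf15-KO mouse below every WT mouse. Elovl6, which elongates palmitate, had 102 to 361 CPM, median 251, in Gdf15-KO mice and 239.7 to 706 CPM, median 460.4, in WT mice (log2 fold change -0.96, standard error 0.30, adjusted p = 0.687). Thrsp, a regulator of lipogenesis known as Spot 14, had 538 to 1531 CPM, median 993, in Gdf15-KO mice and 1244 to 2009 CPM, median 1405, in WT mice (log2 fold change -0.69, standard error 0.22, adjusted p = 0.699). Mid1ip1, its relative, which promotes polymerization of acetyl-CoA carboxylase, had 54.7 to 97.7 CPM in Gdf15-KO and 77.9 to 129 CPM in WT mice (log2 fold change -0.50, standard error 0.15, adjusted p = 0.648). By qPCR the study reported significantly lower Acly, Acc and Fasn in sWAT of male Gdf15-KO mice, and lower FASN protein. In the sequencing counts these enzymes were in this range. Acly, which makes cytosolic acetyl-CoA, had a log2 fold change of -0.60, Acaca, acetyl-CoA carboxylase, -0.49, and Fasn, fatty acid synthase, -0.50 (adjusted p = 0.925, 0.956 and 0.956). In the same edgeR test their unadjusted p was 0.0205, 0.0331 and 0.0297, each under 0.05. The study compared its qPCR values by unpaired t-tests, so the p adjusted over all tested genes is not a like threshold. Fasn had 7771 to 17292 CPM, median 11337, in Gdf15-KO mice and 13765 to 20569 CPM, median 17537, in WT mice, so the highest Gdf15-KO mice lay amid the WT mice. Gdf15-KO 16 and 18 were the lowest mice for the summed list, at 41940 and 41529 CPM, and without either of them 4 genes were lower at the unadjusted p, as were 5 without WT 2. In the fit of all 24 mice 4 were lower at that p, and in DESeq2 on the male mice 11. Gdf15-KO 13 summed to 71682 CPM, inside the WT range of 58685 to 84262 CPM. The 20 genes were measured in the same mice, so members are not independent of each other.

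Uptake, storage and release of fatty acids gave a mixed picture. In the list of lipoprotein lipase and fatty acid uptake, 1 of 15 genes fell (Angptl8), 3 were lower and 0 higher at an unadjusted p under 0.05, and the median was -0.16. Of the 15, 2 lie within 20 Mb of Gdf15, Lpl among them. The shares over all tested genes were 0.174% for genes that fell, and 2.86% lower and 2.14% higher at the unadjusted p, and they apply to each list here. Slc27a2, a fatty acid transport protein, had 0.574 to 2.28 CPM in Gdf15-KO and 1.41 to 5.05 CPM in WT mice (log2 fold change -1.52, standard error 0.40, adjusted p = 0.444). In triglyceride synthesis 0 of 18 were called and 2 were lower, with a median of -0.03 (0 to 4 lower with 1 mouse left out, 4 without Gdf15-KO 15 and 0 without Gdf15-KO 14 or 16 or WT 1 or 3). They were Gpd1, which makes glycerol 3-phosphate (-0.41), and Agpat2, an acyltransferase (-0.38). Gpat3 had 44.2 to 88.1 CPM in Gdf15-KO and 50.8 to 86.3 CPM in WT mice (log2 fold change 0.08), and Dgat2 had 1665 to 3133 CPM in Gdf15-KO and 2173 to 2519.9 CPM in WT mice (log2 fold change -0.07). Their signs turned when single mice were left out. In lipolysis and lipid droplets 0 of 19 were called, 3 were lower and 1 higher, with a median of -0.03. Cidea, a lipid droplet protein also abundant in brown fat (chromosome 18), had 40.5 to 63.2 CPM, median 55.7, in Gdf15-KO mice and 46.7 to 125 CPM, median 95.2, in WT mice (log2 fold change -0.82, standard error 0.20, adjusted p = 0.356). It was called by DESeq2 on the same mice (adjusted p = 0.0174) and, in edgeR, without WT 4, its lowest WT mouse. G0s2, an inhibitor of the triglyceride lipase ATGL, had 57.6 to 91.5 CPM in Gdf15-KO and 78.5 to 154 CPM in WT mice (log2 fold change -0.56, standard error 0.17, adjusted p = 0.683), and Plin5 a log2 fold change of -0.48. Adrb3, the beta-3 adrenergic receptor that triggers lipolysis, was the higher one, with 275 to 477 CPM in Gdf15-KO and 187 to 346 CPM in WT mice (log2 fold change 0.52, standard error 0.16, adjusted p = 0.683).

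The sterol and mitochondrial lists shared a small negative shift. In cholesterol synthesis 20 of 23 genes were negative and 5 lower at an unadjusted p under 0.05, with a median of -0.17, where 50.5% of all tested genes were negative and 2.86% lower at that p. Lss, lanosterol synthase, had 29 to 45.8 CPM in Gdf15-KO and 41.7 to 51.7 CPM in WT mice (log2 fold change -0.41, standard error 0.10, adjusted p = 0.372), and Idi1, Pmvk and Cyp51 had log2 fold changes of -0.26, -0.39 and -0.45. In oxidative phosphorylation all 31 genes were negative with a median of -0.18 and 7 were lower. Ndufb3 and Ndufa1, subunits of complex I, had -0.33 and -0.37, and Cycs, cytochrome c, -0.44. In the TCA cycle all 17 were negative with a median of -0.19 and 3 were lower, among them Dlat and Idh3a at -0.32 and -0.34. In fatty acid oxidation 24 of 26 were negative with a median of -0.17 and 2 were lower, Hadha and Eci1 at -0.31 and -0.32. None of these genes was called, with adjusted p of 0.372 or more among those named. These genes shift together between mice, so members are not independent of each other. The counts of the mitochondrial lists depended on single mice, and WT 4 moved them most. Its summed oxidative phosphorylation genes came to 5552 CPM, against 7110 to 8897 CPM in the other WT mice and 5772 to 7729 CPM in Gdf15-KO mice. Without WT 4 the number lower at the unadjusted p was 22 in oxidative phosphorylation, 16 in fatty acid oxidation and 10 in the TCA cycle. Other mice brought the counts down. In fatty acid oxidation no gene was lower at that p (0 of 26) without Gdf15-KO 14, 16 or 18 or without WT 1, 3 or 5, in the TCA cycle none (0 of 17) without Gdf15-KO 14, 16 or 18 or without WT 1 or 3, and in oxidative phosphorylation 3 were without WT 1 or 5.

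The brown and beige adipocyte list held 14 tested genes, 12 of them negative, with a median of -0.34. None was called and 3 were lower at the unadjusted p, Cidea, Elovl3 and Cox7a1. Over all tested genes 50.5% were negative, 0.174% fell and 2.86% were lower at that p. Of the 14 list members, 1 lies within 20 Mb of Gdf15. With 1 mouse left out 1 to 5 were lower, 5 without Gdf15-KO 15 and 1 without Gdf15-KO 13, 17 or 18 or WT 3. Elovl3, an elongase of very long fatty acids, and Cox7a1, a subunit of cytochrome oxidase that muscle also expresses, had log2 fold changes of -1.50 and -1.16 with standard errors of 0.61 and 0.51. Dio2, which activates thyroid hormone, had -0.95 (adjusted p = 0.964). The 35 lipid genes that the study lists were all negative, with a median of -0.20, 1 called and 9 lower at the unadjusted p (15 without WT 4, 6 without Gdf15-KO 16 or WT 2), but they were chosen on these samples and their direction is not independent evidence. Of the 35, 3 lie within 20 Mb of Gdf15, namely Lpl, Slc27a1 and Cyp4f18, and Lpl and Cyp4f18 are among those lower at the unadjusted p.

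Lists of adipocyte identity, hormones and stress had median log2 fold changes close to 0, while single members spread more widely. Members ranged from -0.18 to 0.25 in adipocyte markers and from -0.96 to 0.45 in cytokine and acute phase genes. The 12 adipocyte markers had a median of 0.02 with 0 past either threshold, and Adipoq, adiponectin, had 1741 ± 352 CPM in Gdf15-KO mice and 1718 ± 220.4 CPM in WT mice (SD). The 10 adipokines tested had a median of 0.02, and Nampt, an enzyme also secreted by fat, was lower at the unadjusted p (log2 fold change -0.29, standard error 0.11, adjusted p = 0.925). Lep, leptin, had a log2 fold change of -0.02. The 19 genes of the integrated stress response, which induces Gdf15 in many cells, had a median of -0.01, with Psph lower and Trib3 higher at the unadjusted p (-0.29 and 0.24, adjusted p = 0.956 and 0.956). The 15 clock genes and the 12 cytokine and acute phase genes had 0 members past either threshold, with medians of -0.01 and 0.06. Of 10 steroid receptor and enzyme genes, Akr1c18, a progesterone-inactivating reductase, was higher at the unadjusted p (0.57, adjusted p = 0.87).

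**Figure D4:**
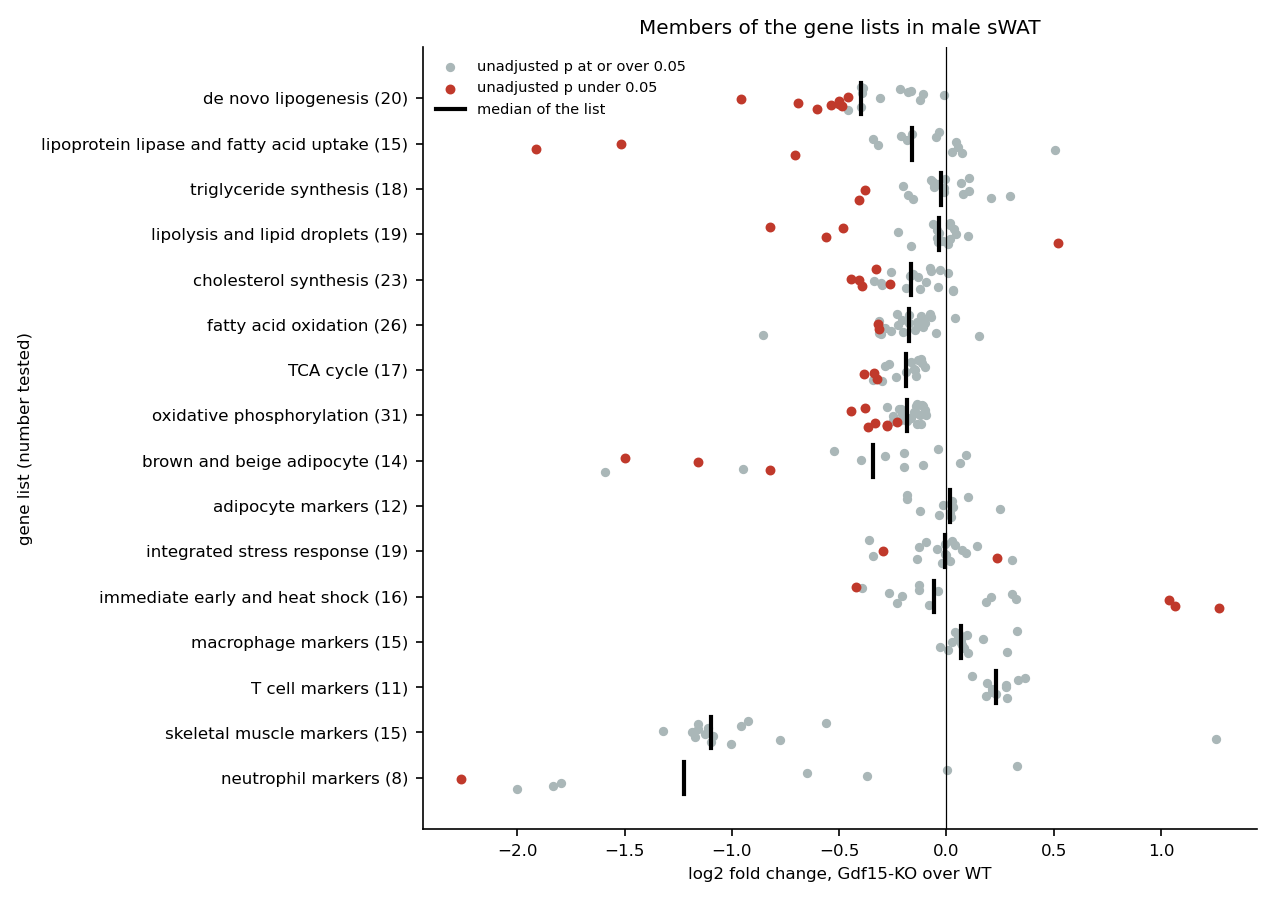
Log2 fold change (Gdf15-KO over WT, x axis) of each tested member of 16 gene lists (y axis, number tested in brackets), red where the unadjusted p is under 0.05, with the median as a black bar. The de novo lipogenesis genes lie left of 0 with a median of -0.40, those of the TCA cycle and oxidative phosphorylation lie in a narrow band with medians of -0.19 and -0.18, and the skeletal muscle and neutrophil markers spread widely.

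Markers of other cells varied between mice. Summed over 15 skeletal muscle markers, Gdf15-KO mice had 133, 443, 13986, 17378, 4466 and 5700 CPM (mice 13 to 18) and WT mice had 39565, 28518, 16829, 291, 619 and 3730 CPM (mice 1 to 6). Both groups thus held mice nearly free of muscle RNA and mice rich in it, and 0 of 15 markers passed either threshold although their median log2 fold change was -1.10. With a muscle score as covariate 30 genes were called, 27 of them the same, and 8 de novo lipogenesis and 4 oxidative phosphorylation genes were lower at the unadjusted p. Among neutrophil markers WT 5 stood alone, at a sum of 139 CPM against 9.58 to 21.9 CPM in the other WT mice and 5.44 to 39.4 CPM in Gdf15-KO mice. Ltf, lactoferrin, had 23.9 CPM in WT 5. Angptl8 and 4 other calls were lost with a neutrophil score as covariate, which gave 28 calls. Markers of macrophages, B cells, T cells, endothelium, fibroblasts, Schwann cells and erythrocytes had 0 members past either threshold, with medians of 0.07, 0.05, 0.23, 0.09, 0.05, 0.02 and -0.03. Beside the negative log2 fold changes of the de novo lipogenesis and mitochondrial lists, those of 11 of 11 T cell, 14 of 15 macrophage, 11 of 12 endothelial and 10 of 13 fibroblast and progenitor markers were positive. The other marker lists were more even or negative. Positive were 5 of 8 B cell, 7 of 11 Schwann cell, 7 of 12 adipocyte and 2 of 6 erythrocyte markers. So were 2 of 8 neutrophil, 1 of 4 mammary and epithelial and 1 of 15 skeletal muscle markers. Over all tested genes 7113 of 14379 were positive. The T cell markers summed to 282 to 781 CPM in Gdf15-KO mice and 321 to 559 CPM in WT mice, and the macrophage markers to 2652 to 3419 CPM in Gdf15-KO mice and 2557 to 2994 CPM in WT mice. Their part in those lists' values was not tested. Of 15 mammary and epithelial markers 4 were tested, and Krt19, a keratin, was lower at the unadjusted p (0.584 to 1.2 CPM in Gdf15-KO and 0.925 to 2.74 CPM in WT mice).

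The females allow a comparison that the choice of mice did not use. The 24 genes called within 20 Mb in males had the same sign in females in each case, and 23 of them also passed in females in the fit of all 24 mice, the exception being Upf1 (-0.16 in females, adjusted p = 0.343). B3gnt3, Borcs8, Zfp868 and Armc6 had log2 fold changes of -2.55, -1.27, 1.25 and 0.79 in males and -2.25, -1.24, 1.18 and 0.68 in females. Of the 6 genes called elsewhere none passed in females in that fit, and none of them passed in males in it either. Angptl8 had -1.91 in males and -0.60 in females, Ppp1r3b -1.45 and -0.92, Flrt1 -1.24 and -0.44, A4galt 0.34 and 0.07, and Zfp131 -0.25 and -0.02. Egr1 alone differed in sign, at 1.04 in males and -0.57 in females. The difference between the sexes in the genotype effect was tested itself, and no gene of 14982 passed (0%), with 522 (3.48%) at an unadjusted p under 0.05. DESeq2 with an interaction term also called 0, with 621 at the unadjusted p. For Egr1 the unadjusted p of that difference was 0.00473, for Zfp131 0.0123, for A4galt 0.0351, for Fos 0.00235 and for Ppp1r3b 0.408, each with an adjusted p of 0.998 from edgeR. A gene called in males and not in females was therefore not shown to differ between them.

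**Figure D5:**
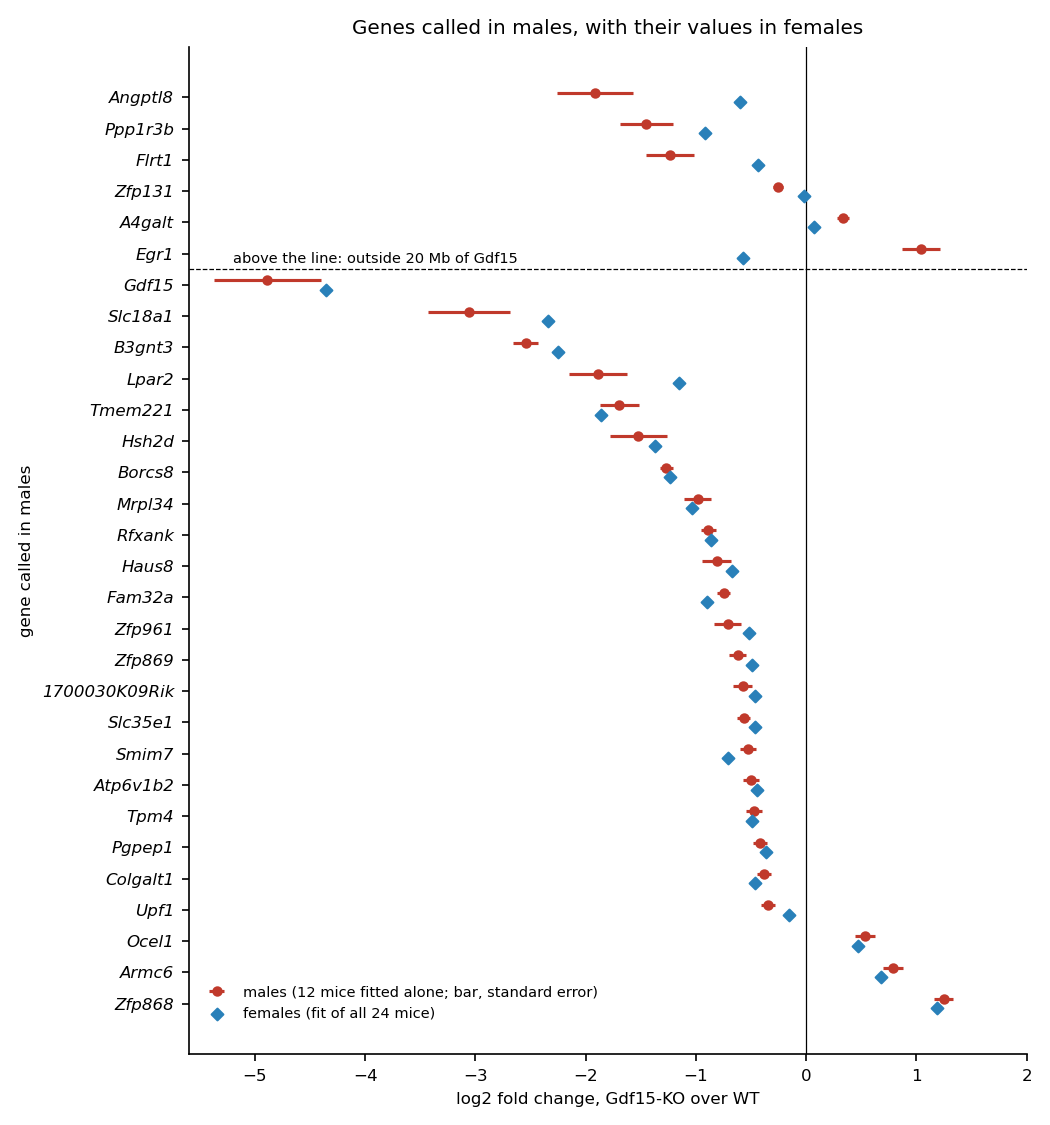
Log2 fold change (Gdf15-KO over WT, x axis) of the 30 genes called in males (y axis), in males as red circles with standard errors and in females as blue diamonds, those outside 20 Mb of Gdf15 above the dashed line. Within 20 Mb each pair lies on the same side of 0, and above the line Egr1 lies at 1.04 in males and -0.57 in females.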

How the data were processed

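RNA-Seq of sWAT from 24 mice was deposited as 1 table of 19175 genes, of which the 12 male columns were used and the females served for comparison. Per the labels and the study's methods, the authors aligned paired nanoball reads with Bowtie2 2.2.5 to GRCm39 and estimated expected counts per gene with RSEM 1.2.8. Whether counting used strand is not given in the sources used here. The authors' sums of deposited expected counts ran from 22814595 to 24314177 in male Gdf15-KO and from 22521358 to 23855903 in male WT mice. All 24 value columns matched a sample.

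Expected counts were rounded, filtered with filterByExpr (minimum count 10, minimum total 15; 14379 genes kept), TMM normalized and fitted in edgeR 4.0.16 (R 4.3.3) by quasi-likelihood with 1 mean per genotype, where the authors used DESeq2. Calls were made where p, adjusted by Benjamini-Hochberg over all tested genes, was under 0.05. The sex difference was an interaction term over all 24 mice. Labels do not say that mice came from separate litters, so p-values measure the spread between these animals. Positions came from GENCODE on GRCm39 (18214 of 19175 genes placed) and promoters are the 200 bases before the canonical start. The procedure was tested on simulated data.

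The mice, the 27 gene lists and the genes named were chosen with earlier results of these data known. Named were Gdf15, all called genes, the 10 higher and 10 lower genes of smallest p outside the 20 Mb window that reach 1 CPM, up to 4 members of each list, 5 genes the study measured by qPCR and the neighbours of the outermost called genes, apart from a list member that is not reported here. The alternatives were DESeq2 1.42.0, limma-voom (limma 3.58.1), other size factors and filters, a robust fit, all 24 mice, marker scores as covariates, windows of 5 and 10 Mb, thresholds of 0.01 and 0.1, and leaving out each mouse. The neutrophil score was added after the data were seen.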

Additional observations from a re-analysis of the deposited data

Results flagged for a closer look

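In 13 of 182 groups of 6 mice, 1 mouse stood far from the other 5 for a gene named in the text. The rule nominally flags about 1 in 20 groups, and its rate by chance in these data was not measured. Among lipid and thermogenic genes, G0s2 had 57.6 CPM in Gdf15-KO 18, against 83 to 91.5 CPM in the other Gdf15-KO mice. Slc27a2 had 2.28 CPM in Gdf15-KO 16, against 0.574 to 1.13 CPM in the others. Dio2 had 2.11 CPM in Gdf15-KO 15, against 0.342 to 0.88 CPM. Cox7a1 had 16.1 CPM in WT 1, the mouse with the most skeletal muscle RNA, against 1.5 to 6.69 CPM in the other WT mice.

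Fos had 25.9 CPM in Gdf15-KO 17, against 5 to 12.4 CPM in the other Gdf15-KO mice. The neutrophil genes Ltf and S100a8 had 23.9 and 27.2 CPM in WT 5, against 1.05 to 3.01 CPM for Ltf and 0.565 to 2.48 CPM for S100a8 in the other WT mice, and S100a8 had 3.56 CPM in Gdf15-KO 14, against 0.29 to 1.21 CPM. The remaining gaps were narrow in CPM. Zfp131 had 34.2 CPM in Gdf15-KO 16 (others 30.8 to 31.7), Ubap1l 0.788 CPM in the same mouse (others 0.492 to 0.584), Prnd 6.83 CPM in Gdf15-KO 15 (others 4.44 to 5.33), Ints10 28.8 CPM in WT 4 (others 26.9 to 27.6) and Sec14l4 2.65 CPM in WT 3 (others 1.77 to 2.08).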

How the results depend on the processing

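Leaving out 1 mouse at a time gave 16 to 26 calls in all, 16 to 22 within 20 Mb of Gdf15 and 0 to 5 elsewhere, against 30, 24 and 6. DESeq2 on the male mice called 59, 39 within the window and 20 elsewhere. The fit of all 24 mice called 30, of which 24 were the same and 1 lay outside the window (LOC118568312). An adjusted p of 0.01 left 15 calls, 15 within and 0 outside the window, and 0.1 gave 10 outside. Of 2084 values of named genes under alternatives, 1896 kept direction and side of the threshold, 147 lost and 37 gained the call, and 4 changed sign. Those were Gpat3 (-0.013 with the neutrophil score, -0.000687 to 0.18 with 1 mouse left out, lowest without Gdf15-KO 15), Dgat2 (-0.19 to 0.0015, highest without Gdf15-KO 16) and S100a8 (-2.56 to 0.23, highest without WT 5). The causes were not tested. With 1 mouse left out, 4 to 10 genes were lower at an unadjusted p under 0.05 in de novo lipogenesis, 3 to 22 in oxidative phosphorylation, 0 to 16 in fatty acid oxidation and 0 to 10 in the TCA cycle. Between the sexes 0 genes differed under every alternative run. With the replicate number as a block across the sexes the count was 0, with 492 at an unadjusted p under 0.05, but the labels do not pair the mice. Deviations of same-numbered mice had correlations from -0.56 to 0.40, over 0.1 in 9 of 12 pairs. Differently numbered mice were not compared, so whether the deviations pair the mice was not tested. No paired analysis was possible between Gdf15-KO and WT mice because they share no replicate number. At this depth Gdf15, Slc18a1 and Flrt1 rest on few counts, and none of the 3 was tested under the filter of 10 counts in every mouse.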
